A study of Arabidopsis thaliana with 18 samples.

Results

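A set of 53 Arabidopsis transcripts stood far higher in total RNA of young seedlings than in every other RNA sample of the experiment. A row of the array table was taken into the set when its lowest value on the 3 seedling total RNA arrays lay at least 2 log2 units, a factor of 4, above its highest value on the other 15 arrays, and mitochondria-encoded rows were left out. The gap between those 2 values is called the margin here. The rule took 53 of 27827 rows, or 0.191% of the 27735 rows that are not encoded by the mitochondrion. The members were thus chosen by the measured values on all 18 arrays, and their high level in seedling total RNA is described below without a test.

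RNA came from plants of the ecotype Columbia-0 (Col-0), sampled as dry seeds or as seedlings 72 h after the start of imbibition, the uptake of water that begins germination. From each stage total, monosomal and polysomal RNA were hybridised to arrays, with 3 replicate arrays in each of the 6 groups. No mutant, hormone or other treatment is named in the labels, and 8 plants were bulked for every replicate. The same note, that RNA came from freshly harvested dry seeds, stands on the dry seed and on the seedling samples, and the preparation of the monosomal fraction is not described in the sources used here.

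In a polysome several ribosomes translate 1 messenger RNA, while a monosome is a single ribosome and can be idle or translating. Total RNA also holds what neither fraction takes up, such as RNA in nuclei and organelles, RNA in other particles and free RNA. How much RNA each fraction held was not measured, so a level is relative to the other rows of its own array, and fewer cells with a transcript cannot be told apart from less of it per cell. Labelling used a 3' one-cycle kit, and how well it takes up transfer RNAs, pseudogene RNAs or RNAs without a poly(A) tail was not tested.

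Values are log2 intensities, 1 per locus and array, that the authors had normalised by RMA (robust multi-array averaging). Array medians lay between 3.05 and 3.65, lowest in dry seeds and highest in seedling total RNA, so a value near 3 is that of a row in the middle of its array. The stage labels were checked with stage markers. CRA1, which encodes a cruciferin storage protein, had a mean of 11.71 ± 0.08 (SD, n = 3) in dry seed total RNA and 3.53 ± 0.26 in seedling total RNA. CAB1, a chlorophyll-binding protein gene, went the other way, from 3.01 ± 1.26 to 10.79 ± 0.11. CRA1 also read 7.75 on seedling monosomal replicate 1 and 7.57 on seedling polysomal replicate 3, above the 3.85 to 6.38 of the other seedling ribosome arrays. On that polysomal array OLEO1 (an oil body protein gene) and GEA6 (a late embryogenesis gene) were high as well, at 6.86 and 7.06 against 3.38 to 4.07 on the other 2 polysomal arrays, whereas on the monosomal array they read 3.95 and 5.72, against 3.13 to 5.45 on the other 2. Leaving out either of these arrays left the member count at 53, and the counts of called members below that use them became 4 in place of 6 in polysomal RNA between stages, 10 in place of 9 in monosomal RNA, and 4 in place of 6 between the seedling ribosome fractions in both cases.

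The same rule, applied with each other group in turn as the high one, found 1 row for dry seed monosomal RNA, 1 for seedling monosomal RNA and none for the remaining groups. With the margin lowered to 1, seedling total RNA gave 200 rows, while the next group, dry seed monosomal RNA, gave 37. Member margins ran from 2.02 to 5.20 with a median of 2.53. On the seedling total arrays the members read between 4.06 and 10.75, and 40 of the 53 were above the 75th percentile of the array on all 3. The median SD of the members' 3 values there was 0.24, against 0.22 over all rows, a value the rule bears on because it uses the lowest of the 3.

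**Figure D1:**
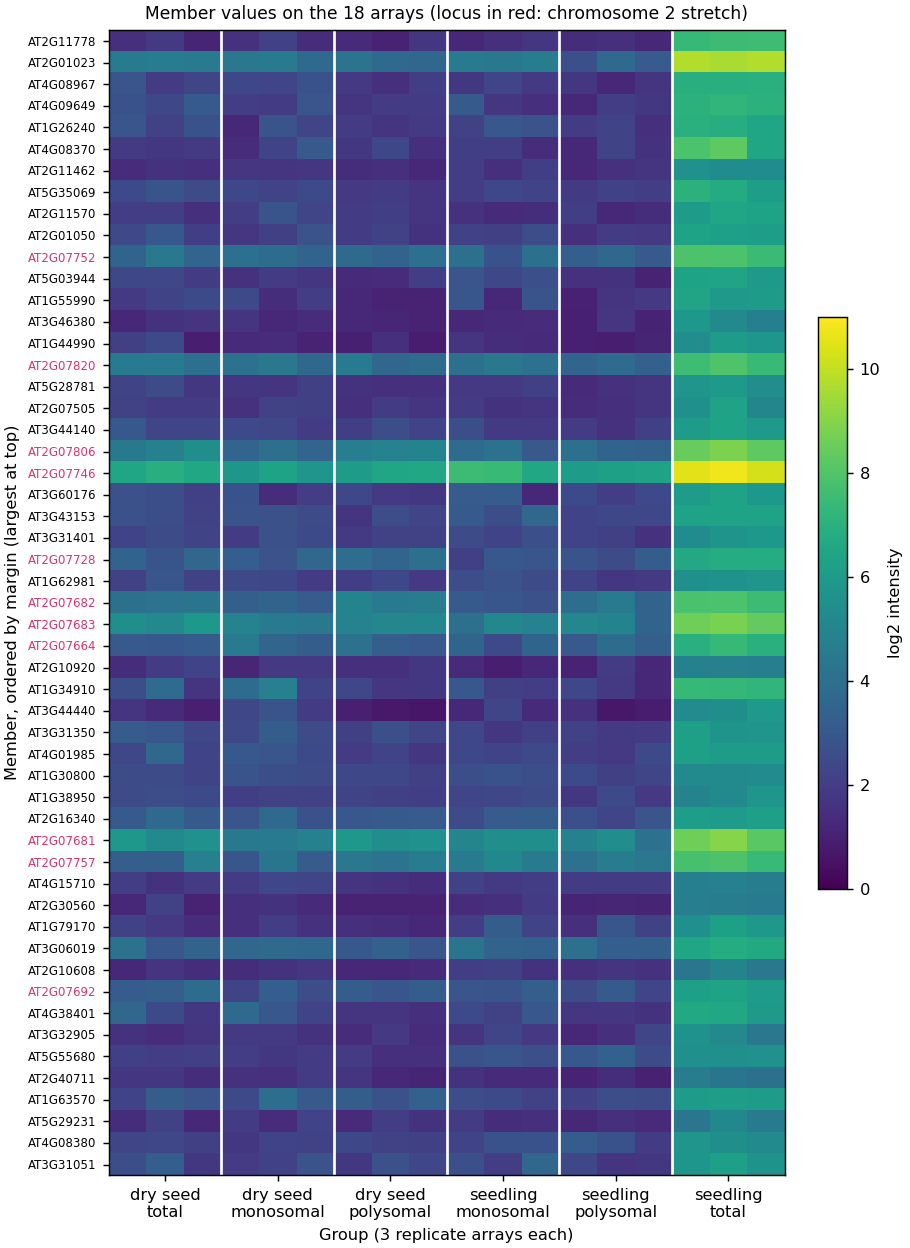
Each line is 1 of the 53 members and each column 1 of the 18 arrays, ordered by group. Colour gives the log2 intensity. The 3 columns at the right, seedling total RNA, are brighter than the other 15 in every line because the rule asks for it, and the lines named in red (a stretch of chromosome 2) are also brighter elsewhere.

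The members were not all dim outside seedling total RNA. In 31 of the 53 the value lay under the array median on all 15 other arrays. The other 22 were above the median on at least 1 of those arrays, up to 7.54. The wording "only in seedling total RNA" would thus fit the first 31 at most, and for the whole set the measured statement is a level at least 2 log2 units higher there. Averaged per gene, seedling total RNA exceeded seedling polysomal RNA by 2.56 to 6.48 (median 3.94), seedling monosomal RNA by 2.55 to 6.01 (median 3.70) and dry seed total RNA by 2.67 to 5.99 (median 3.58). The rule sets a floor of 2 under all of these differences.

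**Figure D2:**
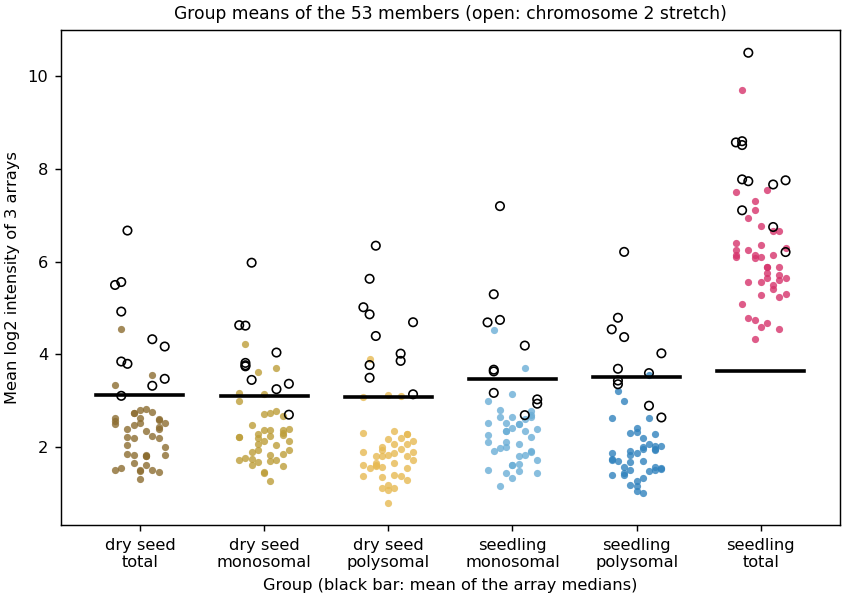
Each point is the mean of 3 arrays for 1 of the 53 members, open circles mark the 11 members of the chromosome 2 stretch, and the black bar is the mean of the group's array medians. In 5 groups most filled points lie under the bar, whereas in seedling total RNA all points lie above it.

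By gene type, 39 members are protein-coding in RefSeq, 3 are transfer RNA genes, 2 pseudogenes, 1 a transcribed pseudogene and 1 a non-coding RNA, AT3G60176. A further 7 have no RefSeq entry. Only 1 member carries a gene symbol, ABCI4, and no share over all rows is set beside this. None of the 68 small nucleolar RNA rows, 13 small nuclear RNA rows, 222 long non-coding RNA rows, 174 microRNA rows or 15 chloroplast-encoded rows was a member. At a member share of 0.191% lists of these sizes need not hold any, so this is no result about them. Protein-coding rows made up 73.6% of the members against 95.2% of all rows. Rows without a RefSeq entry made up 13.2% against 2.11%. Transfer RNA rows made up 5.66% against 0.219%, pseudogenes 3.77% against 0.0611% and transcribed pseudogenes 1.89% against 0.115%. The members of these types all lie in the chromosome 2 stretch described below. For non-coding RNA the shares were 1.89% and 0.593%.

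A list of 13 genes for proteins of small nucleolar RNA particles, nucleolin included, and 4 genes for proteins of the U1 and U2 particles of splicing held no member, which at a member share of 0.191% is no result about them. From dry seed to seedling 46.2% of the 13 were called in polysomal RNA (3 higher, 3 lower), against 53.6% of all rows. In monosomal RNA 53.8% were called (1 higher, 6 lower), against 51.6% of all rows. Of the 4, 1 rose and 1 fell in polysomal RNA and 1 fell in monosomal RNA. The shares of the 13 called in either direction are near the background. Of all rows 26.7% were called higher and 26.8% lower in polysomal RNA, and 26.8% higher and 24.9% lower in monosomal RNA. With 13 and 4 genes, nothing is read from the splits by direction or from the calls of the 4.

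The largest margin, 5.20, belonged to AT2G11778, a protein-coding locus of 168 bases. Its 3 seedling total arrays read 7.39, 7.53 and 7.6. On the other arrays it read 1.53, 1.87 and 1.15 in dry seed total RNA, 1.58, 2.19 and 1.41 in dry seed monosomal, 1.37, 1.06 and 1.72 in dry seed polysomal, 1.23, 1.52 and 1.75 in seedling monosomal, and 1.46, 1.48 and 1.28 in seedling polysomal RNA. The 15 other values form 1 narrow band that lies under every array median.

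AT2G01023, of 120 bases, had the second largest margin, 4.93, and was the only member with a ribosomal RNA gene among its RefSeq neighbours. It read 9.75, 9.59 and 9.74 in seedling total RNA. In dry seeds it read 4.48, 4.65 and 4.54 in total, 4.39, 4.52 and 3.75 in monosomal and 4.24, 3.78 and 3.70 in polysomal RNA. In seedlings it read 4.57, 4.41 and 4.61 in monosomal and 2.70, 3.76 and 3.16 in polysomal RNA. The locus was above the array median on every array except seedling polysomal replicates 1 and 3. Of the 4 other measured rows with a ribosomal RNA gene nearby, all on chromosome 3, AT3G41761 and AT3G41762 had margins of 1.28 and 1.12, and AT3G42050 and AT3G42060 had margins of -0.89 and -0.03.

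AT4G08967, which has no RefSeq entry, read 6.91, 6.93 and 6.99 in seedling total RNA and between 1.24 and 2.91 elsewhere, a margin of 4.01. AT4G09649, of 138 bases, read 7.06, 7.22 and 7.08, with 1.24 to 3.11 elsewhere and a margin of 3.95. In both the 3 seedling total values lie within 0.2 of each other and more than 3.9 above the nearest other array.

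AT1G26240 and AT4G08370 followed with margins of 3.5 and 3.43. AT1G26240 read 6.98, 6.87 and 6.47 in seedling total RNA, 2.16, 2.97 and 2.80 in seedling monosomal and 1.91, 2.24 and 1.5 in seedling polysomal RNA. AT4G08370 was the least even member, at 7.89, 8.25 and 6.52 (SD 0.91), with 2.06, 2.02 and 1.38 in seedling monosomal and 1.24, 2.26 and 1.59 in seedling polysomal RNA. Its lowest seedling total array is still well above its highest other array, 3.09 on dry seed monosomal replicate 3.

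AT4G08380, with 1 gene between it and AT4G08370, was also a member, with a margin of 2.09. It read 5.74, 5.49 and 5.28 in seedling total RNA and at most 3.20 elsewhere. The next measured gene beyond this pair, SAPX (AT4G08390), had a margin of -0.49. The gene next to AT1G26240, AT1G26250, was also higher in seedlings, with group means of 4.91 in total, 3.95 in monosomal and 3.54 in polysomal RNA, so its seedling signal was not limited to total RNA.

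The remaining members among the 12 with the largest margins were AT5G35069, AT2G11462, AT2G11570, AT2G01050, the transfer RNA gene AT2G07752 and AT5G03944. Their margins lay between 3.07 and 3.31. AT2G11462, the dimmest of these in seedling total RNA, read 5.56, 5.35 and 5.34 there and 1.21 to 2.03 on the other arrays. AT2G01050 read 6.40, 6.19 and 6.15 against at most 3.02.

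At the edge of the rule the members AT5G29231, AT4G08380 and AT3G31051 had margins of 2.10, 2.09 and 2.02. Just outside it were AT3G50250, AT2G14378 and AT2G15185, at 1.96, 1.94 and 1.93. AT3G50250 had its highest other values in seedling monosomal RNA, where it read 5.73, 7.65 and 7.59, against 9.90, 9.96 and 9.62 in total and 3.71, 2.97 and 4.45 in polysomal RNA. AT2G14378 and AT2G15185 missed it through 1 dry seed array each, at 3.95 and 3.67.

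Chromosome 2 held 22 of the 53 members (41.5%) against 15.8% of all rows. The nuclear chromosome 2 of Col-0 carries a large insertion of mitochondrial DNA near its centromere, so that many loci there have a near-identical copy in the mitochondrial genome. On these arrays 33 rows of chromosome 2 had values identical to a mitochondrial row on all 18 arrays. The stretch is the range of locus numbers from the lowest to the highest of them, AT2G07664 to AT2G07826, delimited after the values had been seen. Locus numbers here do not follow gene order, and the range also takes in genes such as MCM5 (AT2G07690). The stretch is therefore not the insertion itself. The stretch holds 97 rows, of which 11 were members (11.3%), while outside it 42 of 27638 rows were members (0.152%).

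Seedling total RNA exceeded all other arrays by any amount in 46 of the 97 rows of the stretch (47.4%), in 46 of the 92 mitochondria-encoded rows (50%), and in 5.03% of all rows that are not mitochondria-encoded. The margin of 2 was reached by 11 of the 92 mitochondria-encoded rows (12%), beside 11.3% in the stretch. Because 33 stretch rows, 3 of them members, have the very values of a mitochondria-encoded row, the likeness of these shares is partly built in. Members of the stretch differed from the rest in level. They read 6.05 to 10.75 in seedling total RNA and 2.09 to 7.54 elsewhere, against 4.06 to 9.75 and 0.65 to 4.78 for the 42 others. All 31 members that stayed under the array median on the 15 other arrays lay outside the stretch.

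**Figure D3:**
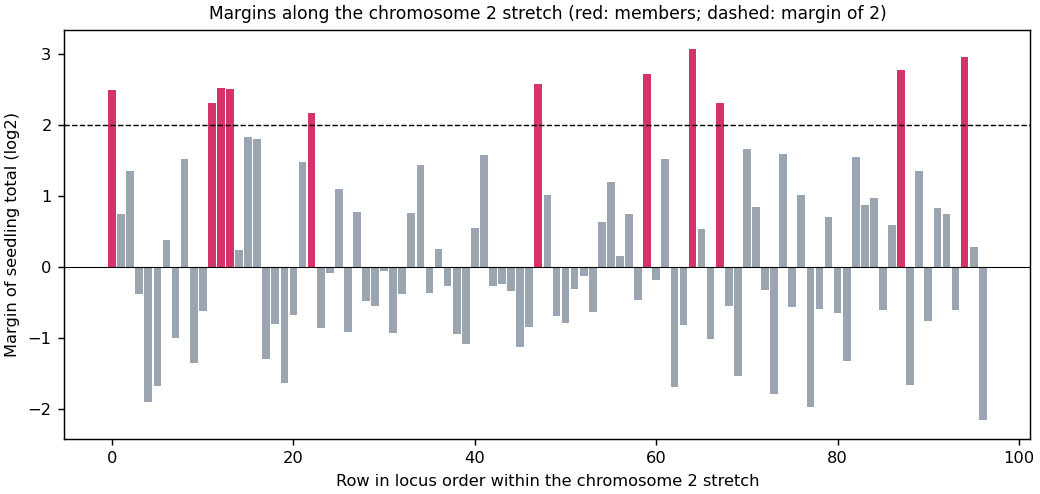
Bars give the margin of seedling total RNA over the highest other array (log2) for the 97 rows of the chromosome 2 stretch in locus order. The 11 members, in red, lie among rows with margins on both sides of 0, down to -2.16.

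For at least 3 of these members the locus measured is uncertain, because the row equals a mitochondrial one. AT2G07664, a transcribed pseudogene, has the values of ATMG01040, the glutamate transfer RNA gene AT2G07752 those of ATMG00800, and the serine transfer RNA gene AT2G07757 those of ATMG00230. AT2G07752 read 7.93, 7.89 and 7.5 in seedling total RNA, and 2.78 to 4.42 on the other arrays. AT2G07757 read 7.81, 7.94 and 7.45, and 2.95 to 5.13 elsewhere. On the other arrays AT2G07757 varied over a wider range than AT2G07752.

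The third transfer RNA member, AT2G07746, for glutamine, was the brightest member. It read 10.49, 10.75 and 10.27 in seedling total RNA, 7.54, 7.46 and 6.59 in seedling monosomal, 6.04, 6.27 and 6.32 in seedling polysomal, 6.53, 6.94 and 6.54 in dry seed total, 5.84, 6.37 and 5.72 in dry seed monosomal and 6.02, 6.46 and 6.55 in dry seed polysomal RNA. All 18 values are well above the array medians, with seedling monosomal RNA second in order. The mitochondria-encoded row ATMG00950 read close to AT2G07746, so the locus measured is uncertain here too. That row read 10.44, 10.51 and 10.15 in seedling total RNA and 7.72, 7.42 and 6.55 in seedling monosomal RNA. Transfer RNAs carry amino acids to the ribosome. Outside the stretch none of 48 transfer RNA rows was a member, while 13 of the 61 measured transfer RNA rows lie within it. With 0.152% of all rows outside the stretch being members, nothing is read from that absence.

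The other members of the stretch are ABCI4 (AT2G07681, ATP-binding cassette I4 in RefSeq), the pseudogenes AT2G07682 and AT2G07683 and the protein-coding loci AT2G07692, AT2G07728, AT2G07806 and AT2G07820. ABCI4 read 8.59, 9.0 and 8.2 in seedling total RNA. It read 5.85, 5.25 and 5.58 in dry seed total, 4.44, 4.57 and 4.85 in dry seed monosomal, 5.88, 5.45 and 5.56 in dry seed polysomal, 4.99, 5.42 and 5.48 in seedling monosomal, and 4.84, 5.38 and 4.15 in seedling polysomal RNA. Dry seed monosomal RNA was lower than dry seed total and polysomal RNA without overlap. AT2G07806 read 8.44, 8.84 and 8.26 in seedling total RNA, and its dry seed polysomal values, 4.72, 4.89 and 4.98, stood above all 6 values of the seedling ribosome fractions. No share over all rows is set beside these separations of ABCI4 and AT2G07806, so nothing is read from them.

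Several RefSeq genes overlap in this region. AT2G07752 overlaps AT2G07683, and both were members. Over all members with a RefSeq entry 10 of 46 overlap another gene, and probe strand and placement are not given in the sources used here, so signal of overlapping genes cannot be told apart.

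Some features that the rule did not use were more frequent among the 42 members outside the stretch than among all rows. The measures were chosen after the members had been seen, so the figures are descriptions. The rule caps the values elsewhere, and 31 of the 42 lay under the array median on all 15 other arrays. Rows of like level were not used as background, so whether dim rows have the features below as often was not tested. Of the 35 with a RefSeq entry, 20 (57.1%) had pseudogenes as at least 25% of their 20 nearest annotated genes, against 7.18% of all rows. In 9 (25.7%) the share was at least 50%, against 2.54%. AT3G31350, for example, had pseudogenes only as neighbours (100%), and AT2G11462 had 90%.

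These members were also short. The median gene length of the 34 protein-coding ones was 640 bases, with a range of 111 to 2230, against 2115 over all protein-coding rows. A length of at most 500 bases was found in 14 of 34 (41.2%), compared with 3.65% of all. Loci are numbered in steps that leave room for genes added in between, and loci whose number does not end in 0 made up 21 of 42 (50%) against 15% of nuclear rows outside the stretch.

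**Figure D4:**
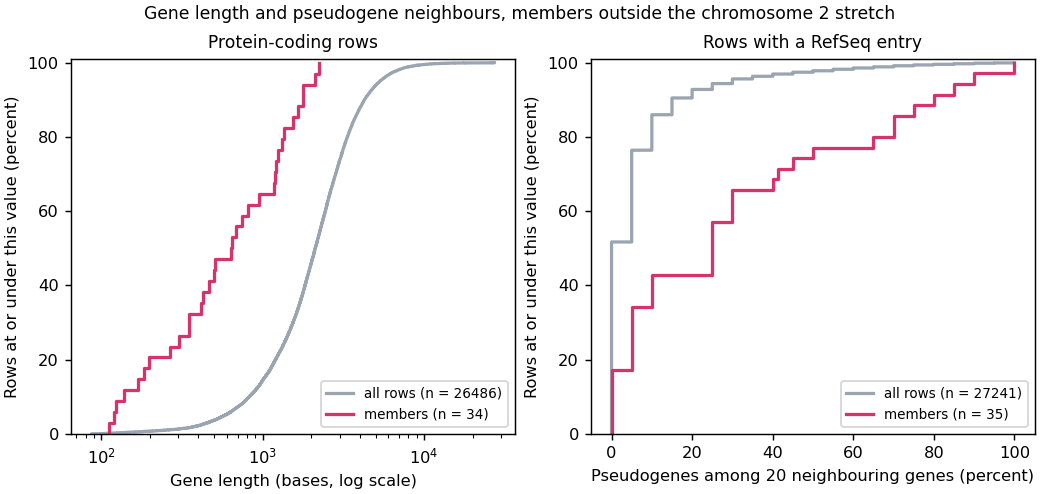
The panels give the cumulative percentage of rows against gene length in bases (log axis, protein-coding rows) and against the share of pseudogenes among 20 neighbouring genes (rows with a RefSeq entry). The members outside the chromosome 2 stretch, in red, are shorter than all rows, in grey, and have more pseudogenes nearby, with medians of 640 against 2115 bases and of 25% against 0%.

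Of 38 measured genes directly next to a member outside the stretch, none was a member and none had a margin over 0, with margins from -3.45 to -0.04. Over all rows that are not mitochondria-encoded only 5.03% had a margin over 0, so this count is near the background and nothing is read from it. Some members were each other's next measured row with unmeasured genes between them. These were AT2G01023 and AT2G01050 (12 genes between), AT2G10608 and AT2G10920 (42), and AT4G08370 and AT4G08380 (1).

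The log2 changes in the comparisons below use no seedling total array, whose high values chose the members. Their errors do, since 1 spread is estimated over all 18 arrays, and 6 of the 26 calls were lost when the seedling total arrays were left out of the fit. These were AT1G34910 and AT3G44440 in monosomal RNA between stages, AT1G62981 between the seedling ribosome fractions, and ABCI4, AT2G07682 and AT3G44440 in dry seed monosomal against total RNA. The rule still caps all 15 other values of a member, which limits how far one could rise in them, so a low share of calls is in part built in and nothing is read from it. The p-values are from limma, adjusted over all 27827 rows by Benjamini-Hochberg, and a change was called under 0.05. With 3 arrays a group they measure the spread between the replicate bulks.

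**Figure D5:**
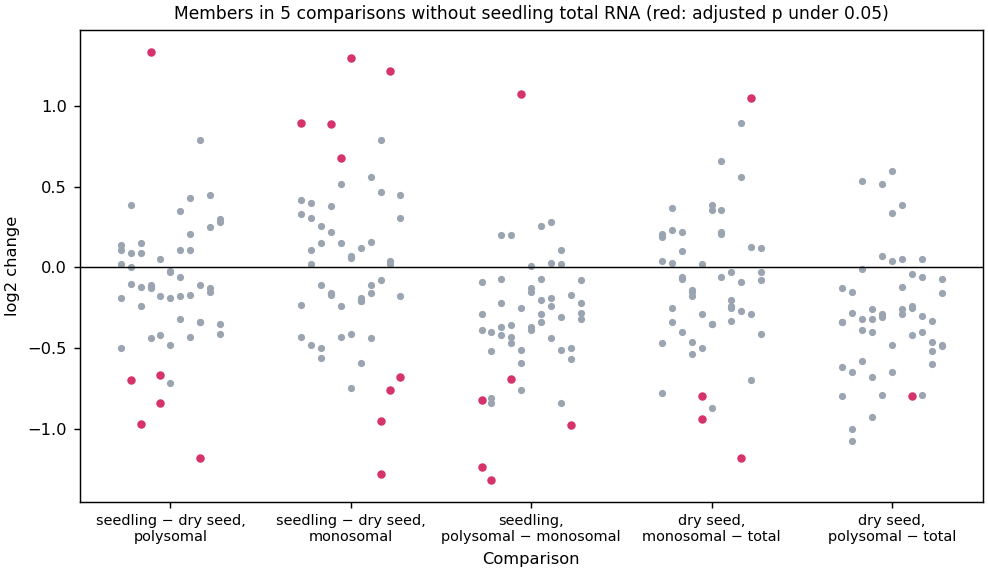
Points are the log2 changes of the 53 members in the 5 comparisons without seedling total RNA, red where the adjusted p was under 0.05. Called changes number 6, 9, 6, 4 and 1 from left to right and all lie within 1.4 of 0.

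From dry seed to seedling, 6 members changed in polysomal RNA, 1 higher and 5 lower, or 11.3% of members against 53.6% of all rows called (26.7% higher and 26.8% lower). The median change of all members was -0.12 against -0.03 over all rows. With each array centred on its median, which moved the median change of all rows to -0.46, 26 members were called, 1 higher and 25 lower, and with the 75th percentile 3 higher and 2 lower. AT5G55680, a protein-coding locus, rose by 1.34 (SE 0.20, adjusted p = 1.04e-05). Its dry seed polysomal values were 1.94, 1.53 and 1.48 and its seedling ones 3.04, 3.42 and 2.52. In seedling total RNA it read 5.54, 5.54 and 5.58. Its values on the seedling ribosome arrays, at most 3.42, all stayed under the medians of those arrays, 3.44 to 3.56. The rise in the ribosome fractions was thus 1 among dim rows.

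The 5 that fell in polysomal RNA were AT2G01023 and 4 members of the chromosome 2 stretch. AT2G07806 fell by 1.18 (SE 0.28, adjusted p = 0.00142), from 4.72, 4.89 and 4.98 to 4.08, 3.56 and 3.43. AT2G07728 fell by 0.97 (SE 0.28, adjusted p = 0.00573), from 3.95, 3.58 and 4.05 to 2.87, 2.55 and 3.26. In both the groups do not overlap, but no share over all rows is set beside this. ABCI4 fell by 0.84 (adjusted p = 0.0139), AT2G01023 by 0.70 (adjusted p = 0.0206) and AT2G07682 by 0.67 (adjusted p = 0.0192), and these 3 calls were lost without dry seed polysomal replicate 1 or without seedling polysomal replicate 3, and under 2 other scalings (75th percentile and cyclic loess). The call of AT2G01023 was also lost without seedling polysomal replicate 1. In polysomal RNA 3 members remained called without that dry seed array.

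In monosomal RNA 9 members changed from dry seed to seedling, 5 higher and 4 lower, or 17% against 51.6% of all rows (26.8% higher and 24.9% lower). The median change was 0.02 against 0.03. The split became 3 higher and 15 lower with median centring, 8 higher and 1 lower with the 75th percentile and 6 higher and 10 lower after cyclic loess. Of the 5 that rose, 3 were of the stretch. AT2G07757 rose by 1.30 (SE 0.35, adjusted p = 0.00398), from 2.95, 4.26 and 3.14 to 4.52, 5.13 and 4.58. AT2G07746 rose by 1.22 (SE 0.25, adjusted p = 0.000343). ABCI4 rose by 0.68 (adjusted p = 0.0468), a call lost without dry seed monosomal replicate 1 or 2 or seedling monosomal replicate 2 or 3, and with each array centred on its median.

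Outside the stretch AT5G03944 and AT5G55680 rose in monosomal RNA, by 0.90 (SE 0.23, adjusted p = 0.00277) and 0.89 (SE 0.20, adjusted p = 0.00092). The call of AT5G03944 was lost with each array centred on its median. AT5G03944 went from 1.58, 1.91 and 1.75 to 2.88, 2.40 and 2.67. AT2G11570 fell by 0.95 (SE 0.24, adjusted p = 0.00219), from 2.05, 2.84 and 2.28 to 1.57, 1.32 and 1.42. None of these 3 overlaps between stages, but no share over all rows is set beside this, so nothing is read from it. Their monosomal values all lay under the array medians, 3.08 to 3.13 in dry seeds and 3.44 to 3.48 in seedlings.

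The other 3 monosomal calls were weaker. AT1G34910 fell by 1.28 (SE 0.52, adjusted p = 0.0448), AT3G44440 by 0.76 (adjusted p = 0.0421) and AT3G31350 by 0.68 (adjusted p = 0.0351). AT1G34910 spread from 2.25 to 4.78 over its dry seed monosomal arrays. Each of these calls was lost with arrays centred on their 75th percentile, and when seedling monosomal replicate 3 or dry seed monosomal replicate 2 was left out, and also without seedling monosomal replicate 2 for AT1G34910 and AT3G31350, dry seed monosomal replicate 1 for AT1G34910 and AT3G44440, and seedling monosomal replicate 1 for AT3G44440.

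Within seedlings, 6 members differed between polysomal and monosomal RNA, 1 higher and 5 lower in polysomal RNA, or 11.3% against 19.1% of all rows (10.9% higher and 8.17% lower). The members' median difference was -0.32 against -0.10. Centring on the 75th percentile gave 12 calls, 1 higher and 11 lower. AT2G01023 was lower in polysomal RNA by 1.32 (change -1.32, SE 0.25, adjusted p = 0.00124), AT5G03944 by 1.24 (change -1.24, SE 0.23, adjusted p = 0.00137) and AT2G07746 by 0.98 (change -0.98, SE 0.25, adjusted p = 0.0108). In all 3 the polysomal arrays lie below the monosomal ones without overlap, as the values above show for AT2G01023 and AT2G07746. No share over all rows is set beside this. AT5G03944 read 1.56, 1.61 and 1.04 in polysomal RNA.

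AT3G43153 and AT1G62981 were lower by 0.82 and 0.69 (changes -0.82 and -0.69, adjusted p = 0.0294 and 0.0454), calls that were each lost on leaving out any of 5 of the 6 arrays. The pseudogene AT2G07682 was the one member higher in polysomal RNA, by 1.08 (SE 0.23, adjusted p = 0.0035), at 3.99, 4.58 and 3.5 against 3.13, 2.96 and 2.72.

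In dry seeds few members differed between fractions, and these calls were fragile. Monosomal RNA differed from total RNA in 4 members, 1 higher and 3 lower, or 7.55% against 6.21% of all rows (3.46% higher and 2.74% lower). The median was -0.09 against -0.02. The 3 that were lower belong to the stretch, where 62 of 97 rows, these 3 included, were lower in dry seed monosomal than in total RNA. None was higher. AT2G07806 fell by 1.18 (SE 0.28, adjusted p = 0.0174), ABCI4 by 0.94 (adjusted p = 0.0487) and AT2G07682 by 0.80 (adjusted p = 0.0446). AT3G44440 was higher by 1.05 (adjusted p = 0.0446). The count was 0 to 2 when any 1 of the 6 arrays was left out, and 0 without dry seed monosomal replicate 1.

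Polysomal RNA of dry seeds differed from total RNA in 1 member, AT5G35069, which was lower by 0.80 (change -0.80, SE 0.21, adjusted p = 0.0394). This is 1.89% of members against 4.65% of all rows called (1.5% lower), and the medians were -0.32 and -0.08. Centring on the 75th percentile gave 8 calls, all lower. The values of AT5G35069 were 1.84, 1.92 and 1.69 against 2.48, 2.84 and 2.51, but the call was lost without any 1 of the 6 arrays.

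The difference between polysomal and monosomal RNA was itself compared between stages, in a test added after the data had been seen. It differed in 3 members, all lower in seedlings than in dry seeds (5.66% of members), against 10.5% of all rows called (4.8% lower). These were AT5G03944, AT2G07746 and ABCI4, at -1.09, -1.35 and -1.52 (limma, adjusted p = 0.0406, 0.0208 and 0.0179).

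The stretch and the mitochondria-encoded rows can be set side by side in these comparisons. From dry seed to seedling in polysomal RNA, 39 of 92 mitochondria-encoded rows fell and 14 rose, and 42 of 97 stretch rows fell and 13 rose, where 26.8% of all rows fell and 26.7% rose. In monosomal RNA 44 mitochondria-encoded rows rose and 17 fell, and 41 stretch rows rose and 13 fell, where 26.8% of all rows rose and 24.9% fell. The called stretch members, 4 lower in polysomal and 3 higher in monosomal RNA, moved the way most called rows of both lists moved. The 11 stretch members are themselves counted among the 97 stretch rows, so this likeness is partly built in and nothing is read from it. Since 33 rows of the stretch equal a mitochondria-encoded row, the 2 lists are not independent of each other either.

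The 3 comparisons with seedling total RNA were used by the rule and carry no test for the members. Over all rows 62.1% were called between seedling and dry seed total RNA, 31.8% between seedling total and monosomal RNA, and 20.5% between seedling total and polysomal RNA.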

How the data were processed

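RNA of dry seeds and 72 h imbibed seedlings of Col-0 was measured as total, monosomal and polysomal fractions on 18 arrays. The deposited values are log2 intensities that the authors had normalised by RMA, per the submitters' processing notes. The version and genome build are not given in the sources used here. All 27827 rows were used as deposited, and groups came from the labels. Names, types, lengths and neighbours came from RefSeq (TAIR10.1), matched by locus for 27241 rows.

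A model with 6 group means and 12 residual degrees of freedom was fitted in limma 3.58.1 (R 4.3.3) with moderated statistics and no replicate block, and was tested on simulated data. Named are the members with the largest margins, those at the edge of the rule, those called in a comparison and those identical to another row. The members and lists were chosen with earlier results of these data known. The planned search for promoter motifs was not run, since no promoter sequence was used here. Arrays give no depth, and the number of arrays limits the precision. Alternatives were other scalings, filters, variance priors, a block and leaving out arrays.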

Additional observations from a re-analysis of the deposited data

Results flagged for a closer look

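In 3 members the difference between polysomal and monosomal RNA itself differed between stages, in a comparison added after the data had been seen (limma, adjusted over all rows, 10.5% of all rows called). The difference in seedlings minus that in dry seeds was -1.09 for AT5G03944 (SE 0.33, adjusted p = 0.0406), at -1.24 in seedlings and -0.15 in dry seeds. For the glutamine transfer RNA gene AT2G07746 it was -1.35 (SE 0.36, adjusted p = 0.0208), at -0.98 and 0.37. For ABCI4 (AT2G07681) it was -1.52 (SE 0.39, adjusted p = 0.0179), at -0.51 and 1.01. AT2G07746 and ABCI4 lie in the chromosome 2 stretch, where 46 of 97 rows, these included, were lower and 1 higher in this comparison. Of the 92 mitochondria-encoded rows 46 were lower and 1 higher. AT2G07746 read close to the mitochondria-encoded row ATMG00950, so the locus measured is uncertain. The count of members fell to 1 without dry seed monosomal replicate 3, dry seed polysomal replicate 2 or 3, seedling monosomal replicate 1 or seedling polysomal replicate 1.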

How the results depend on the processing

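With each array centred on its median only 30 rows met the rule, all of them among the 53, and the remaining members no longer met it. The 75th percentile gave 53 rows (51 shared), cyclic loess 44 (43 shared) and quantile normalization 49. A margin of 1 gave 200 and of 3 gave 12, and leaving out 1 array gave 53 to 75, the most without seedling total replicate 3. Median centring moved the median change of all rows from -0.03 to -0.46 in polysomal and from 0.03 to -0.33 in monosomal RNA, seedling against dry seed. The members called there went from 6 to 26 (1 higher, 25 lower) and from 9 to 18 (3 higher, 15 lower), and over all rows the share of calls that were higher went from 49.9% to 31.5% and from 51.8% to 34.9%. Cyclic loess gave 16 in monosomal RNA (6 higher, 10 lower). The 75th percentile gave 12 members in seedling polysomal against monosomal RNA (1 higher, 11 lower, with 26.5% of all calls higher against 57.3%) and 8 lower in dry seed polysomal against total RNA (17.1% against 67.7%). In stage comparisons it turned the members' split to 3 higher and 2 lower in polysomal and 8 higher and 1 lower in monosomal RNA.

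Fitting only the groups compared gave 3 members in seedling polysomal against monosomal, 0 in dry seed monosomal against total and 2 in dry seed polysomal against total RNA. Dry seed monosomal against total RNA gave 2 with median centring and 1 without the seedling total arrays, and dry seed polysomal against total RNA gave 0 with a trend and robust prior. Leaving out 1 array gave 3 to 7 members in polysomal and 6 to 10 in monosomal RNA between stages, 4 to 7 between seedling ribosome fractions, 0 to 2 and 0 to 3 in the dry seed comparisons, and 1 to 4 for the stage difference of the fractions. Of 26 member changes, 10 stayed called under every alternative run and none turned direction. The level in seedling total RNA above the next group mean stayed between 2.02 and 5.82 under the other scalings.

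No pairing by replicate number was seen, as deviations of same-numbered arrays correlated at -0.06 to 0.08. Whether fractions with the same replicate number came from the same bulk is not given in the labels. With a replicate block the counts were 7, 10, 6, 3 and 1 in the order above and 2 for the stage difference. Of the 26 changes the block ended the 2 calls of ABCI4 in monosomal RNA, between stages and against dry seed total RNA.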
